A study of Mus musculus with 8 samples.

Results

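The genes of the tight junction and the desmosome were followed in RNA of uterine epithelium from control mice and from mice labelled as conditional knockouts of Smad2 and Smad3, which encode the transducers of TGF-beta and activin signals. Members were taken by symbol: every gene named Cldn or Tjp with a number, together with Ocln, Marveld2, Marveld3, Cgn, F11r, Cxadr, Dsp, Dsg2, Dsc2, Jup, Pkp1, Pkp2 and Pkp3. This rule uses no measured value and gave 39 genes (32 of the tight junction and 7 of the desmosome) of the 24346 gene symbols in the tables. The study compared 3 control libraries with 5 libraries from mice carrying Smad2flox/flox, Smad3flox/flox and Pgr-cre, called cKO below, all on a mixed C57BL/6/129S6/SvEv background. Pgr-cre is a Cre recombinase knocked into the progesterone receptor locus, so deletion is limited to cells that have expressed that receptor. It is active after birth in the ovary, oviduct, mammary gland and pituitary as well as the uterus, per the labels. The labels name the other 3 libraries only as control. Not given in the sources are the alleles of the controls, the animals' age and cycle stage, how the epithelium was isolated, and whether each library came from its own animal. The p-values therefore describe how these 8 libraries vary, and part of that variation may be technical.

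Epithelial cells are held together near their apical surface by tight junctions, in which claudins of neighbouring cells pair to form strands that either seal the space between the cells or let selected ions through. The strands also hold the MARVEL proteins occludin, tricellulin (Marveld2) and Marveld3, while immunoglobulin-type adhesion proteins such as JAM-A (F11r) and the coxsackievirus and adenovirus receptor (Cxadr) lie beside them, and scaffolds such as ZO-1 (Tjp1), ZO-3 (Tjp3) and cingulin (Cgn) tie the strands to actin. Desmosomes lie below and couple the keratin filaments of adjacent cells: desmogleins and desmocollins bridge the gap, and plakoglobin (Jup), plakophilins and desmoplakin (Dsp) link them to keratin. In the uterus the luminal epithelium remodels both kinds of junction around the time an embryo attaches.

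Levels are FPKM, which corrects the fragments of a transcript for its length and for sequencing depth, summed over a gene's transcripts and put on 1 scale between libraries (scaled FPKM). Estimated depth lay between 42.9 and 53.9 M mapped fragments per library. Of the targeted genes, Smad2 fell from 6.07 ± 0.342 (SD, n = 3) to 3.58 ± 0.378 scaled FPKM (SD, n = 5) without overlap between the groups (limma adjusted p = 0.0055). Smad3 did not separate the groups at gene level, at 25.6 to 31.5 in the controls and 20.6 to 42.6 in the cKO libraries (limma adjusted p = 0.837). The values are per whole gene, and the floxed exons were not examined on their own. Epithelial markers were high in all 8 libraries, with Krt19 at 1765 ± 149 scaled FPKM in the controls and 1507 ± 482 in the cKO libraries, and Epcam at 478 ± 12.7 and 455 ± 58.3. Of the 10 epithelial markers 1 was called: Ehf rose from 53.0 ± 7.01 to 80.1 ± 9.49 without overlap (limma adjusted p = 0.0199). Elf3 was at 549 ± 101 and 367 ± 91.2, with overlap (limma adjusted p = 0.0979). Markers of other cell types were present as well. The summed level of 12 stromal fibroblast markers was 117 to 265 in the controls and 62.0 to 258 in the cKO libraries, and that of 9 smooth muscle markers 57.7 to 335 and 15.6 to 109. For 10 leukocyte markers the sums were 410 to 624 and 505 to 752, for 10 endothelial markers 12.4 to 21.7 and 8.06 to 14.7, and for 5 mesothelial markers 13.9 to 32.6 and 2.89 to 49.4; these 5 sums overlapped between the groups and none of their markers was at 0 in every library. Single markers did move. Stromal Nr2f2 fell from 8.54 ± 1.09 to 5.47 ± 0.694 (limma adjusted p = 0.0175) and endothelial Flt1 from 7.93 ± 1.91 to 4.46 ± 0.857 (limma adjusted p = 0.0368), each without overlap. The leukocyte sum was mostly Cd14, at 217 to 425 in the controls and 348 to 643 in the cKO libraries, and its other markers moved in both directions. The integrin gene Itgam, on that list, fell from 51.2 ± 10.5 to 6.28 ± 1.71 without overlap (limma adjusted p = 0.000236). The pan-leukocyte gene Ptprc was higher without overlap, at 1.55 to 2.83 in the controls and 3.03 to 10.2 in the cKO libraries (limma adjusted p = 0.0615). Tyrobp was at 13.6 ± 7.44 and 30.1 ± 13.8 (limma adjusted p = 0.141) and Cd68 at 101 ± 18.9 and 68.5 ± 19.6 (limma adjusted p = 0.116). The 5 gland markers in the files did separate the groups, at 0.484 to 1.09 in the controls and 4.62 to 6.30 in the cKO libraries, almost all of it Foxa2, a transcription factor of uterine gland cells, with Ttr and Prss28 at 0 in every library. In bulk RNA, a smaller or larger number of cells of 1 type and a change in RNA per cell cannot be told apart. Whether cell make-up takes part in the differences below was not tested.

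The cKO libraries had a higher level of 4 tight junction genes and a lower level of 1 tight junction scaffold and 2 desmosome genes. Cldn10, Cxadr, Ocln and Cldn12 rose, with Cldn10 4.56-fold higher, and Tjp3, Dsc2 and Pkp2 fell. Testing was limited to genes that reached a scaled FPKM of 1 in 3 or more libraries, which left 24 members, 22 of them at or above 1 in every library. The 7 members called at a limma adjusted p below 0.05 are 29.2% of those tested, against 14.3% of all 11315 genes tested. By direction, 7.27% of all genes were called higher and 6.98% lower. The groups did not overlap at all for 11 of the 24 tested members (45.8%), against 24.6% of all genes tested. These 11 are the 7 called members with Cldn23, F11r, Dsp and Pkp3.

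Directions differed between the groups of members. None of the 6 tested desmosome genes had a positive log2 fold change and their median was −0.39, while 10 of the 18 tested tight junction genes had a positive one and their median was 0.11, beside 5584 positive values and a median of −0.0050 over all 11315 genes tested. A separate list of other desmosome and cornified envelope proteins went the opposite way, with 4 of 5 tested genes positive and a median of 0.64. Log2 fold changes are cKO minus control of log2(scaled FPKM + 1). The split of calls depended on scaling: as TPM, where FPKM is divided by its sum over a library and the median of all genes was −0.20, 2 members were called higher and 8 lower, and with FPKM left unscaled 2 and 4. The calls rest on 3 controls. Without control 2, as without control 3, limma called no member higher and only Dsc2 lower (at an unadjusted p below 0.05, 4 were higher and 6 lower in both fits), and the calls over all genes fell to 238 higher and 186 lower without control 2 and to 243 and 176 without control 3. Without control 1, Cldn10 and Cxadr were called higher and Tjp3 and Dsc2 lower. The direction of each of the 7 called members was unchanged in all 23 alternative fits.

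**Figure D1:**
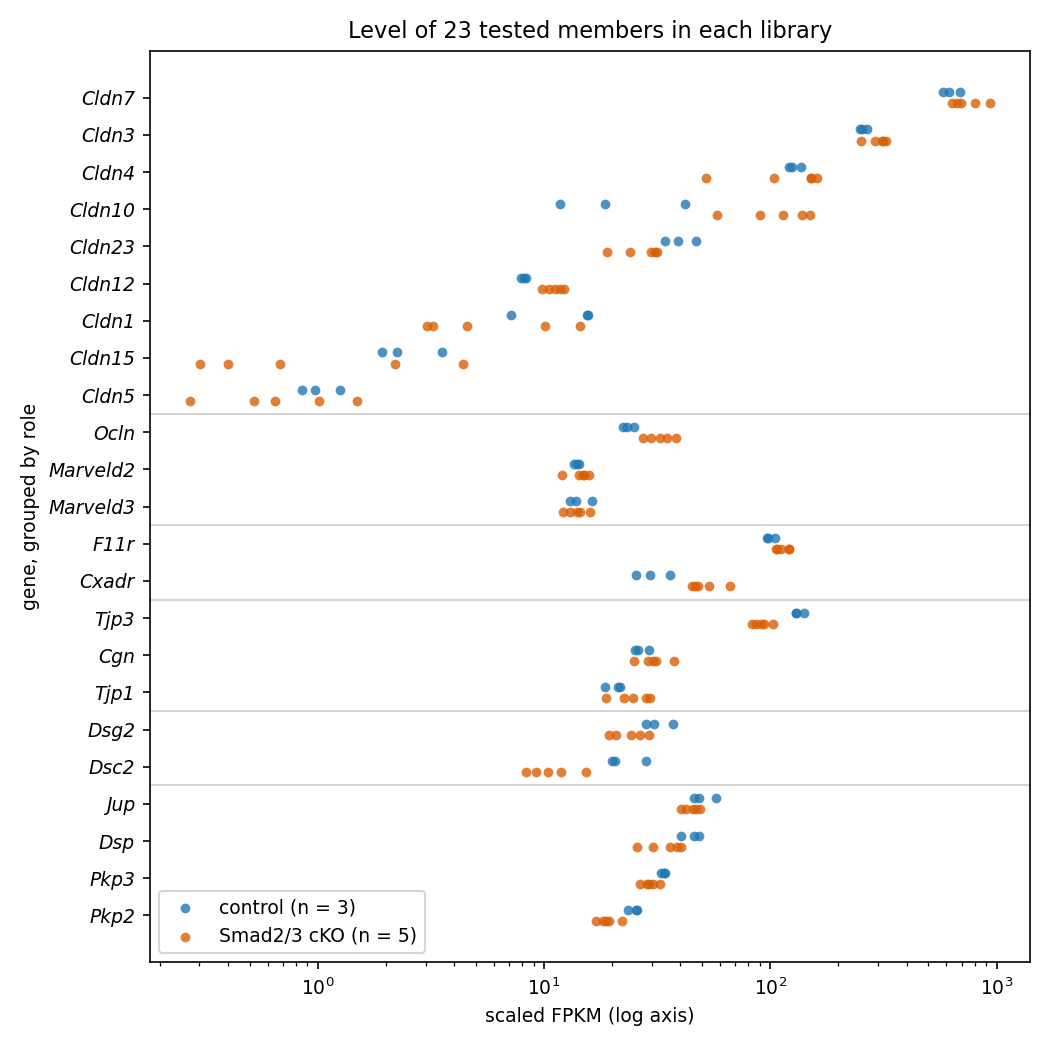
Level of 23 tested members in each library, in scaled FPKM on a log axis, with 3 control points and 5 cKO points per gene and genes grouped by role. Cldn7 and Cldn3 lie highest and Cldn5 lowest, and the cKO points of Cldn10 lie to the right of all control points.

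**Figure D2:**
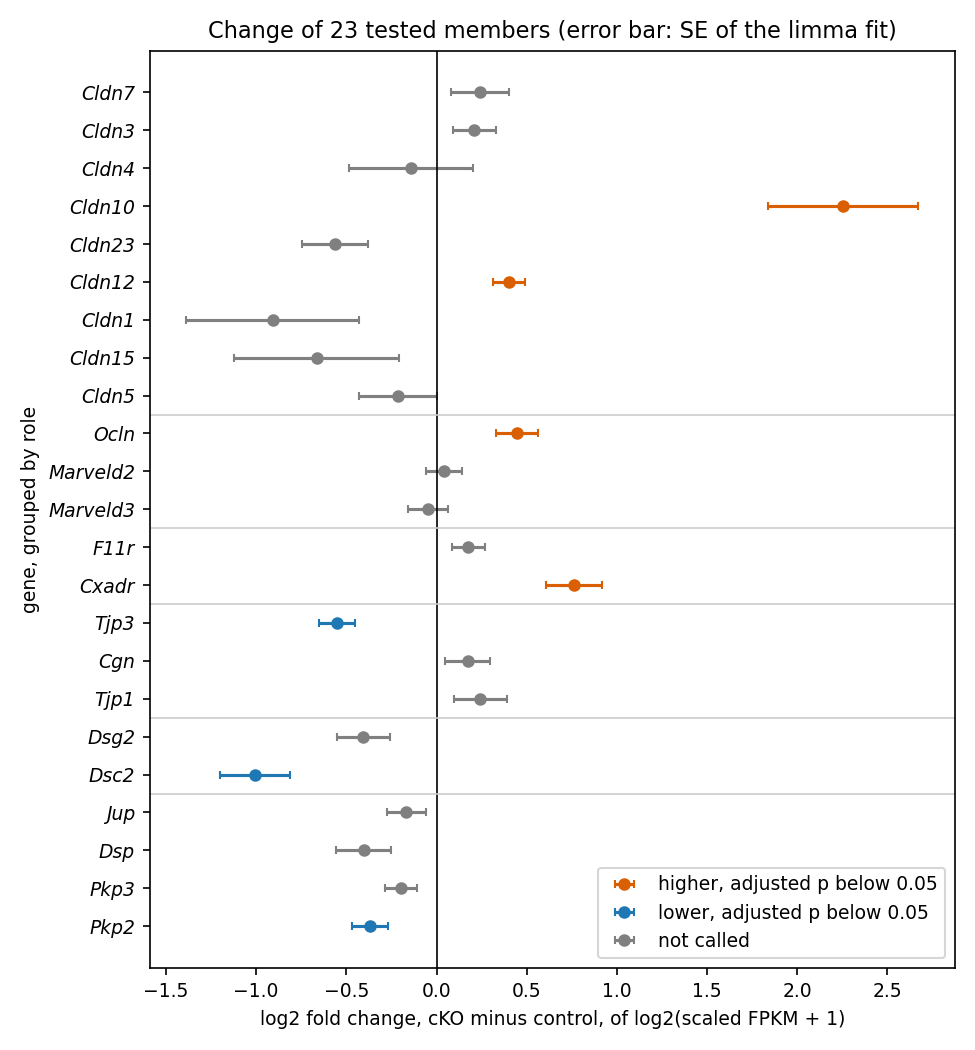
Log2 fold change of 23 tested members, cKO minus control, with the standard error of the limma fit as the error bar and colour for members called higher, called lower or not called. Cldn10 stands apart at 2.26, and all 6 desmosome genes lie left of 0.

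The plot of levels shows how far the members differ in abundance within these libraries, from a mean of 628 scaled FPKM for Cldn7 in the controls to 1.03 for Cldn5. The plot of changes shows that most members moved by less than 0.5 on the log2 scale in either direction.

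Among the claudins the main change was in Cldn10, a claudin that forms paracellular ion channels. Its level was 41.9, 11.7 and 18.6 scaled FPKM in the controls, numbered 1 to 3, against 89.8, 150.1, 57.9, 114 and 137 in the cKO libraries, numbered 1 to 5. Every cKO library lay above every control, and control 1 was the highest of the controls. The deposited 95% intervals of the nearest libraries did not meet, at 39.2 to 44.5 for control 1 and 54.5 to 61.4 for cKO 3. Each interval describes 1 library and not the spread between libraries. Those of the controls did not meet each other either, at 10.6 to 12.8 for control 2 and 17.1 to 20.1 for control 3. The mean rose from 24.1 ± 15.8 (SD, n = 3) to 109.8 ± 37.0 (SD, n = 5), a log2 fold change of 2.26 ± 0.42 (SE) with a limma adjusted p of 0.0106. The exact permutation test, two-sided, gave p = 0.0357, the smallest that 3 and 5 libraries allow. The log2 fold change was 1.86 without control 2 and 2.17 without control 3, where the limma adjusted p was 0.0526 and 0.0567, and 2.74 without control 1.

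Cldn10 (chromosome 14, 118787871 to 118874525, mm10) has alternative first exons, which in the mouse encode channel forms with different ion preference. Of its 6 listed transcripts, the 946-base transcript that starts at 118854950 carried the whole signal in every library. The 4 transcripts that start upstream at 118787871, and a shorter one sharing the downstream start, were listed at 0 in all 8 libraries. The promoters of both starts (250 bases before to 50 after the start, RefSeq, GRCm38.p6, plus strand) are shown because only 1 of them belongs to a transcript with a value. Capitals mark CAGAC or its reverse complement GTCTG, the short element that SMAD proteins bind.
Cldn10 upstream promoter, chr14:118787621-118787920: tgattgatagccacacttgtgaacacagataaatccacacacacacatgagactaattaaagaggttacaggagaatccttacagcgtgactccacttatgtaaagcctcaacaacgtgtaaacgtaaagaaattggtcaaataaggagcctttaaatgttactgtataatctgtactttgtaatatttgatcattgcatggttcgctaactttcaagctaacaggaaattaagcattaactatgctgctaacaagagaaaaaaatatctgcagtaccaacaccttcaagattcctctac
Cldn10 downstream promoter, chr14:118854700-118854999: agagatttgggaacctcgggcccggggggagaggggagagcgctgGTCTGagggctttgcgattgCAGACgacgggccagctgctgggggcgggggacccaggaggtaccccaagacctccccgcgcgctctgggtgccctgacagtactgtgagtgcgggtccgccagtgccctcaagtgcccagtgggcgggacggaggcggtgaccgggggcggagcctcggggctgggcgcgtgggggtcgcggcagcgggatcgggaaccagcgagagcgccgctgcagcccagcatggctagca
The upstream window holds no match and the downstream window 2, which begin 205 and 185 bases before the start. CAGAC on either strand occurs in 49.6% of all 32851 RefSeq promoter windows of this length and in 20 of the 38 windows found for 27 members (52.6%), so a match is common. GGCGCC, a second SMAD element, is in 11.9% of all windows and in 2 of the 38.

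**Figure D3:**
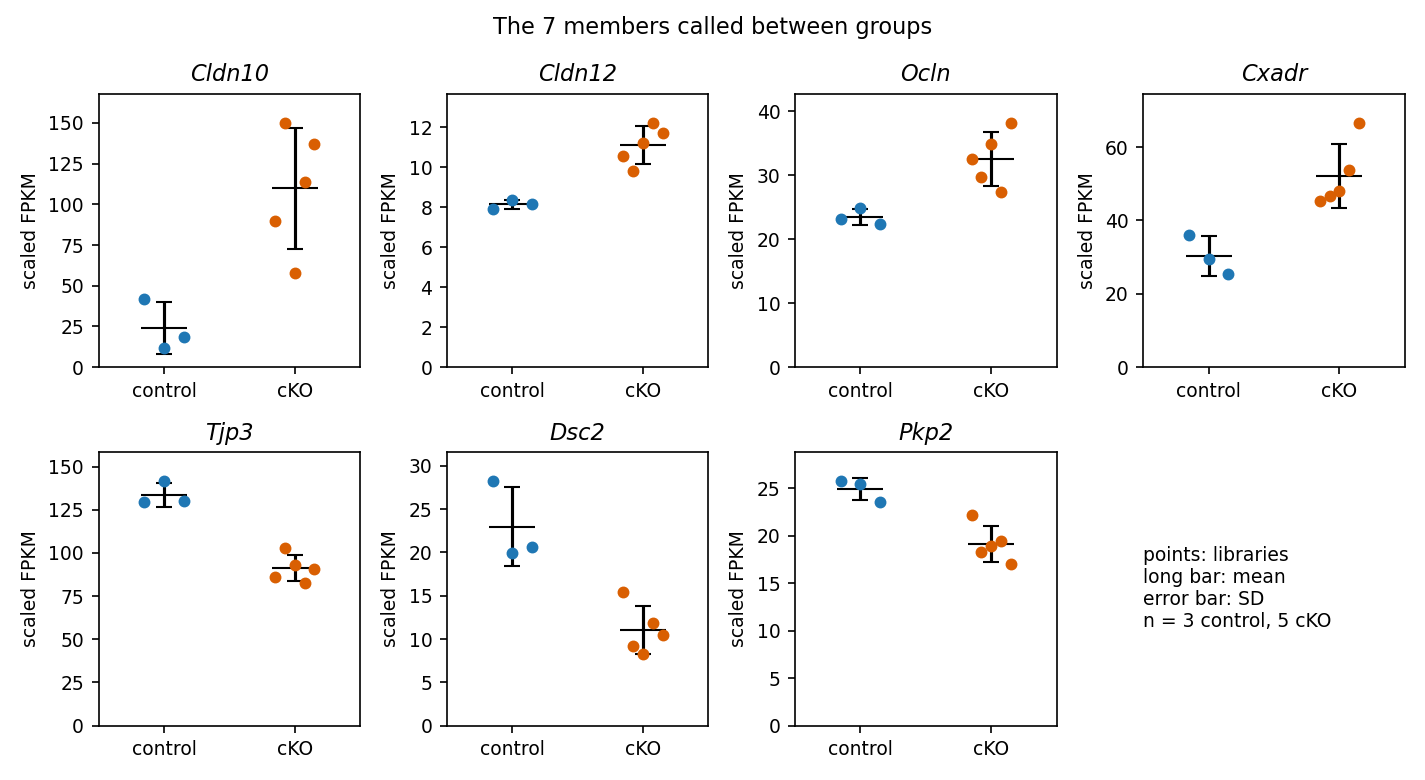
Scaled FPKM of the 7 members called between the groups, with a point for each library, a long bar for the mean and an error bar for the SD (3 control and 5 cKO libraries, axes starting at 0). The groups do not overlap for any of the 7, with cKO higher for Cldn10, Cldn12, Ocln and Cxadr and lower for Tjp3, Dsc2 and Pkp2.

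The claudin layer was dominated by Cldn7 and Cldn3 in every library, and these did not separate the groups. Cldn7 (chromosome 11, 69964779 to 69967886) was at 688, 618 and 579 in the controls and at 933, 695, 636, 806 and 671 in cKO 1 to 5 (limma adjusted p = 0.335). Cldn3 (chromosome 5, 134986214 to 134987476), a sealing claudin whose locus overlaps Wbscr25 (listed at 0 in all libraries), was at 269, 250.1 and 253 in the controls and at 290.5, 314, 312, 251 and 326 in the cKO libraries (limma adjusted p = 0.254). The ranges of both genes overlapped between the groups. Cldn4 (chromosome 5, 134945124 to 134946934), with Cldn3 a receptor for Clostridium perfringens enterotoxin, was at 121, 125 and 137 in the controls and at 151, 104, 152, 52.1 and 161 in the cKO libraries, where cKO 4 was the lowest of all 8 (limma adjusted p = 0.804). Cldn7, Cldn3 and Cldn4 together made up 90.9% to 92.6% of the summed claudin FPKM of a control and 85.0% to 91.0% of that of a cKO library.

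The order of the most abundant claudins changed in part. Cldn7 was first and Cldn3 second in all 8 libraries, and Cldn4 followed in all but cKO 2 and cKO 4, where Cldn10 took its place. Cldn10 made up 1.09% to 3.54% of the claudin FPKM in the controls and 4.79% to 11.5% in the cKO libraries, and Cldn23 3.26% to 3.96% and 1.57% to 2.47%. The summed claudin level was 1050 to 1185 in the controls and 1208 to 1511 in the cKO libraries. That sum overlapped between the groups as TPM and its ratio of cKO to control turned from 1.21 to 0.97 under quantile normalization, so no direction is given for it.

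**Figure D4:**
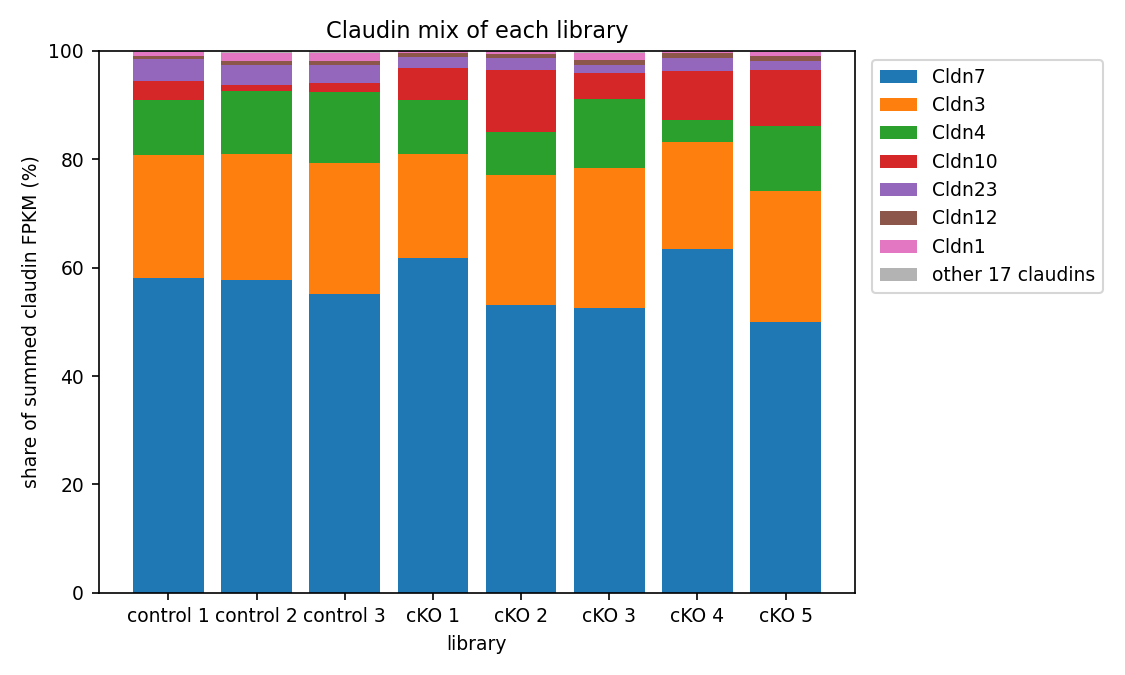
Share of each claudin in the summed claudin FPKM of a library, in percent, as stacked bars for the 3 control and 5 cKO libraries. Cldn7 takes 49.9% to 63.4% of every bar, and the Cldn10 segment is wider in each cKO bar (4.79% to 11.5%) than in any control bar (1.09% to 3.54%).

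The bars of the claudin mix are free of scaling between libraries, since each is a share within 1 library. Cldn12 (chromosome 5, 5505015 to 5514976), a claudin linked to calcium passage in the intestine, was at 7.92, 8.34 and 8.14 scaled FPKM in the controls and at 10.6, 9.79, 11.2, 12.2 and 11.7 in the cKO libraries. The groups did not overlap, and the mean rose 1.37-fold from 8.13 ± 0.210 (SD, n = 3) to 11.1 ± 0.955 (SD, n = 5), a log2 fold change of 0.40 ± 0.09 (SE; limma adjusted p = 0.0216; exact permutation p = 0.0357). This call was lost in 7 of 23 alternative fits, among them TPM (limma adjusted p = 0.248). By transcript, the 3639-base form was at 2.59 ± 0.956 (SD, n = 3) and 5.47 ± 1.86 (SD, n = 5; limma adjusted p = 0.0796), and the 3794-base form at 4.27 ± 0.764 and 4.62 ± 1.39 (limma adjusted p = 0.875).

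Cldn23 (chromosome 8, 35824709 to 35826559) was at 46.9, 38.9 and 34.2 in the controls and at 31.0, 29.7, 18.9, 31.4 and 24.0 in the cKO libraries. No cKO library reached the lowest control, with a log2 fold change of −0.56 ± 0.18 (SE) that did not pass the threshold (limma adjusted p = 0.0728, exact permutation p = 0.0357). It was called lower in 4 of 23 alternative fits, the 3 other scalings and array weights. The remaining tested claudins varied between libraries of the same group. Cldn1, needed for the skin barrier in the mouse, spanned 7.11 to 15.6 in the controls and 3.04 to 14.4 in the cKO libraries (limma adjusted p = 0.227). Cldn15, a cation channel former of the intestine, spanned 1.92 to 3.53 and 0.301 to 4.38 (limma adjusted p = 0.347). It was highest in control 2 among the controls and in cKO 3 among the cKO libraries, which also had the highest mesothelial marker sums of their groups (32.6 and 49.4). Their part in its level was not tested. Cldn5, known from endothelium, was at 1.03 ± 0.207 (SD, n = 3) and 0.787 ± 0.472 (SD, n = 5; limma adjusted p = 0.525).

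The other 14 claudins were too low to test, and none exceeded 0.717 scaled FPKM in any library. Cldn9, Cldn14, Cldn17 and Cldn18 were listed at 0 in all 8 libraries. Cldn2, which forms cation and water channels, spanned 0.143 to 0.717 in the controls and 0.0476 to 0.222 in the cKO libraries. Cldn8, a kidney and colon claudin, was at 0.0503, 0.0454 and 0.0452 in the controls and at 0.108, 0.342, 0.304, 0.415 and 0.303 in the cKO libraries, without overlap. Cldn19, also without overlap, was listed at 0 in the 3 controls and at 0.0254, 0.00485, 0.123, 0.0175 and 0.0274 in the cKO libraries. These values rest on an estimated 0 to 9 fragments per library, too few to read the separation as a difference. With no filter on low values, Cldn8 was the only further member called (log2 fold change 0.30 ± 0.07, SE, limma adjusted p = 0.0439). It was singled out after its values were seen, so that call is no separate support. Its values rest on an estimated 6 to 50 fragments per library. The deposited intervals of control 1 (0.00922 to 0.0913) and cKO 1 (0.0479 to 0.167) overlapped.

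Of the MARVEL proteins, occludin alone was called. Ocln (chromosome 13, 100497367 to 100552498) was at 23.2, 24.9 and 22.3 scaled FPKM in the controls and at 32.6, 29.8, 34.8, 27.4 and 38.2 in the cKO libraries. All 5 cKO libraries lay above the controls, and the mean rose 1.39-fold from 23.5 ± 1.31 (SD, n = 3) to 32.5 ± 4.22 (SD, n = 5), a log2 fold change of 0.45 ± 0.12 (SE; limma adjusted p = 0.0361; exact permutation p = 0.0357). The call was lost in 12 of 23 alternative fits, with limma adjusted p up to 0.163. Marveld2, which seals the corners where 3 cells meet, was at 14.3, 13.9 and 13.5 in the controls and at 15.9, 12.0, 14.3, 14.9 and 14.9 in the cKO libraries (limma adjusted p = 0.802). Marveld3 was at 16.3, 13.0 and 13.8 and at 13.9, 14.4, 12.2, 15.9 and 13.0 (limma adjusted p = 0.797). The groups overlapped for both. Whether the change of Ocln differs from theirs was not tested.

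Cxadr (chromosome 16, 78301671 to 78359785), a homophilic adhesion protein that also serves viruses as a receptor, was higher in every cKO library. Its level was 36.1, 29.4 and 25.5 scaled FPKM in the controls and 45.2, 46.6, 48.0, 53.8 and 66.6 in the cKO libraries. The mean rose 1.72-fold from 30.3 ± 5.37 (SD, n = 3) to 52.1 ± 8.76 (SD, n = 5), a log2 fold change of 0.76 ± 0.16 (SE; limma adjusted p = 0.0158; exact permutation p = 0.0357). The call held in all but 2 of 23 alternative fits, those without control 2 and without control 3 (limma adjusted p = 0.081 and 0.0816). Both of its transcripts with a value rose, the 5566-base form from 14.5 ± 1.83 to 23.9 ± 3.01 (limma adjusted p = 0.0135) and the 1753-base form from 15.8 ± 3.72 to 28.2 ± 6.33 (limma adjusted p = 0.0452). F11r (chromosome 1, 171437561 to 171464593), which encodes JAM-A and helps place the polarity complex at the young junction, was at 105, 97.5 and 96.2 in the controls and at 120.3, 106, 107, 111 and 121 in the cKO libraries. Its groups did not overlap but lay close, and the log2 fold change of 0.18 ± 0.09 (SE) was not called (limma adjusted p = 0.225, exact permutation p = 0.0357).

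Among the scaffolds Tjp3, which encodes ZO-3, was the most abundant and the one called. Tjp3 (chromosome 10, 81273188 to 81291581) was at 129, 142 and 130.1 scaled FPKM in the controls and at 86.2, 103, 93.3, 82.8 and 90.8 in the cKO libraries. No cKO library reached the lowest control. The mean fell from 134 ± 6.83 (SD, n = 3) to 91.2 ± 7.66 (SD, n = 5), 1.47-fold higher in the controls, with a log2 fold change of −0.55 ± 0.10 (SE; limma adjusted p = 0.00995; exact permutation p = 0.0357). The limma adjusted p was 0.0701 without control 2 and 0.0527 without control 3, and the call held in the other 21 alternative fits. Its locus overlaps Apba3, which was listed at 0 in all 8 libraries, so reads from the overlap may have been counted for Tjp3. A single transcript of 3043 bases, starting at 81291267 on the minus strand, carried the signal, and its promoter is shown with the SMAD element in capitals (RefSeq, GRCm38.p6).
Tjp3 promoter, chr10:81291218-81291517, minus strand: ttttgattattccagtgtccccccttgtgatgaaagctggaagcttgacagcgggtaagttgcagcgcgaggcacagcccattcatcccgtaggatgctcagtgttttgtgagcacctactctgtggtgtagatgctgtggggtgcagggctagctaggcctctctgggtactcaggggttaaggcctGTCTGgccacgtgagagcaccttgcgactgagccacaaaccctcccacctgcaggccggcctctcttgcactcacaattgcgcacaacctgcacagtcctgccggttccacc
The element occurs once, beginning 62 bases before the start. The window of the upstream Tjp3 start at 81291581, whose transcript was listed at 0 in all 8 libraries, holds 2 matches, beginning 135 and 100 bases before that start.

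Cgn and Tjp1 did not pass the threshold. Cgn, which encodes cingulin, was at 29.0, 26.0 and 25.3 in the controls and at 30.2, 37.4, 31.1, 25.0 and 28.8 in the cKO libraries (limma adjusted p = 0.377). Tjp1, which encodes ZO-1, was at 21.8, 21.3 and 18.6 and at 18.7, 22.6, 29.5, 24.8 and 28.2 (limma adjusted p = 0.289). The ranges of both overlapped between the groups. The summed level of all scaffolds was 214 to 231 in the controls and 164 to 195 in the cKO libraries, and stayed lower without overlap under all 4 scalings. Tjp3 carried this difference: without it the sum was 84.2 to 93.2 in the controls and 81.6 to 101 in the cKO libraries, with overlap.

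Tjp1 was the 1 member of 7 tested whose transcript shares did not overlap between the groups. The transcripts listed have 7054 and 6874 bases. In the GENCODE transcripts paired with them, the longer contains exon 20 of 28, a coding exon of 240 bases (80 residues) that the shorter lacks and that encodes the alpha domain by which long ZO-1 is told from short ZO-1. The listed lengths differ by 180 bases, so the transcripts also differ elsewhere, and the shares cannot be assigned to this exon alone. It is shown as the exon present in 1 of the pair (chromosome 7, minus strand, GENCODE, GRCm38).
Tjp1 exon 20, chr7:65314093-65314332: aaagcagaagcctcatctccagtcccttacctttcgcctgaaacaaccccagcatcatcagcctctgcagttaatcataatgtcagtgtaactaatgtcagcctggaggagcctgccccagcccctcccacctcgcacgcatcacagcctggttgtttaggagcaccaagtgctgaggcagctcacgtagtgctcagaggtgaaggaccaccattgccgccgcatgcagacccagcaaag
The longer transcript made up 64.6%, 57.2% and 60.6% of Tjp1 FPKM in the controls and 69.3%, 74.4%, 69.8%, 70.9% and 80.8% in the cKO libraries. Each cKO share exceeded each control share, and the mean went from 60.8% ± 3.72 (SD, n = 3) to 73.0% ± 4.76 (SD, n = 5), 12.2 points higher. The exact permutation test gave p = 0.0357, the smallest that 3 and 5 libraries allow. Adjusted over the 7 members with at least 2 measurable transcripts it was 0.25, and none of the 7 passed. With only 1 of the 7 separated, no size of difference could have passed this correction. The adjusted value therefore does not decide whether the Tjp1 shares differ. In level, the longer transcript was at 12.5 ± 1.43 and 18.1 ± 3.75 (limma adjusted p = 0.112) and the shorter at 8.05 ± 0.958 and 6.62 ± 1.47 (limma adjusted p = 0.317).

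**Figure D5:**
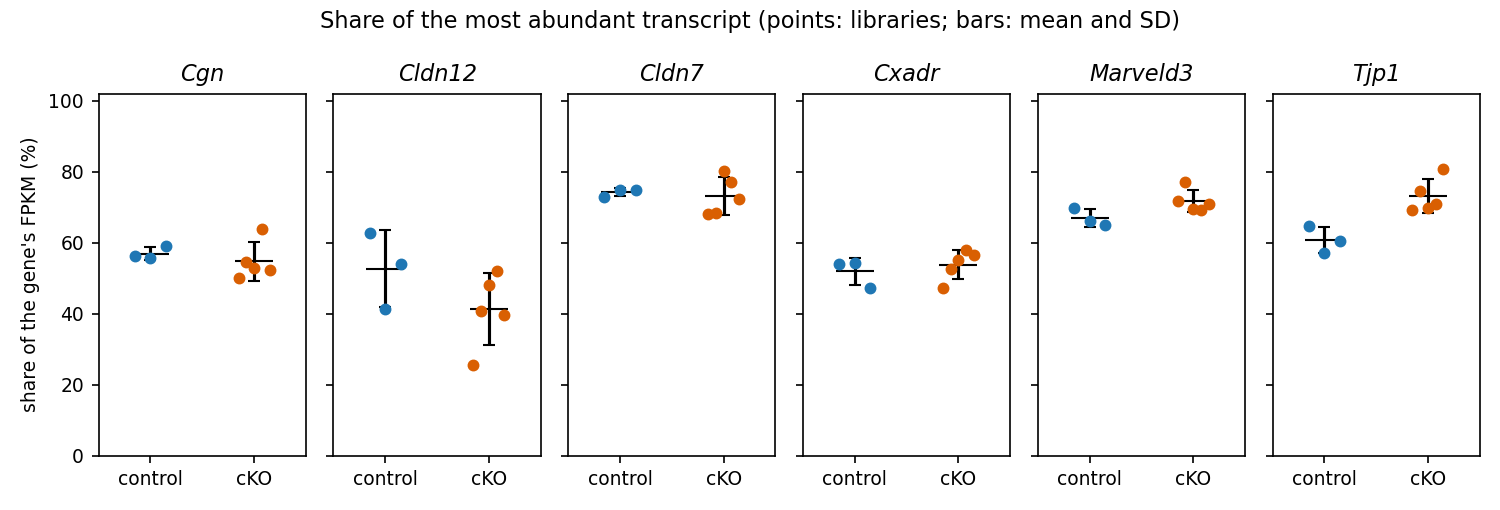
Share of the most abundant transcript in a gene's FPKM, in percent, for 6 of the 7 members with at least 2 measurable transcripts, with a point for each library and bars for the mean and SD (3 control and 5 cKO libraries). For Tjp1 the control points, 57.2% to 64.6%, lie below the cKO points, 69.3% to 80.8%, and the groups overlap for the other members plotted.

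The plot of transcript shares shows overlapping groups for Cgn, Cldn12, Cldn7, Cxadr and Marveld3. These shares are estimates that split shared reads between transcripts.

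The desmosome genes all had lower means in the cKO libraries, and Dsc2 and Pkp2 were called. Dsc2 (chromosome 18, 20030798 to 20059505), the desmocollin of simple epithelia, was at 28.2, 20.0 and 20.7 scaled FPKM in the controls and at 15.4, 9.17, 8.29, 11.9 and 10.4 in the cKO libraries. Control 1 was the highest library and the highest cKO library, cKO 1, lay below every control. The mean fell from 23.0 ± 4.57 (SD, n = 3) to 11.03 ± 2.78 (SD, n = 5), 2.08-fold higher in the controls, with a log2 fold change of −1.01 ± 0.19 (SE; limma adjusted p = 0.0127; exact permutation p = 0.0357). The call held when each library was left out in turn and was lost in 1 of 23 alternative fits, when the level of stromal and muscle markers entered the fit (−0.93, limma adjusted p = 0.0651). Dsg2 (chromosome 18, 20558116 to 20604526), the desmoglein that pairs with it in simple epithelia, was at 37.2, 30.6 and 28.2 in the controls and at 20.9, 19.4, 29.0, 26.5 and 24.1 in the cKO libraries. Only cKO 3 exceeded a control, and the log2 fold change of −0.41 ± 0.15 (SE) was not called (limma adjusted p = 0.103).

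In the plaque, Pkp2 (chromosome 16, 16213345 to 16272712), a plakophilin also known for its role in heart desmosomes, was at 25.7, 25.5 and 23.6 in the controls and at 22.2, 18.3, 18.9, 19.4 and 17.0 in the cKO libraries. The groups did not overlap, and the mean fell from 24.9 ± 1.18 (SD, n = 3) to 19.1 ± 1.92 (SD, n = 5), with a log2 fold change of −0.37 ± 0.10 (SE; limma adjusted p = 0.0389; exact permutation p = 0.0357). This call was lost in 8 of 23 alternative fits, 7 of them with 1 library left out. Dsp (chromosome 13, 38151294 to 38198577), which anchors keratin filaments, was at 48.6, 40.4 and 46.2 in the controls and at 36.0, 25.7, 40.1, 38.7 and 30.4 in the cKO libraries. Every cKO library lay below every control, by a narrow margin for cKO 3, and the log2 fold change of −0.40 ± 0.15 (SE) was not called (limma adjusted p = 0.112, exact permutation p = 0.0357).

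Pkp3, the plakophilin found in nearly all desmosomes, was at 33.8, 33.0 and 34.4 in the controls and at 32.5, 29.1, 28.4, 30.3 and 26.5 in the cKO libraries, again without overlap and without a call (−0.20 ± 0.09, SE; limma adjusted p = 0.162, exact permutation p = 0.0357). Jup, whose protein plakoglobin is shared with adherens junctions, was at 57.8, 45.9 and 48.2 in the controls and at 42.4, 40.3, 49.0, 45.7 and 46.9 in the cKO libraries, with overlap (limma adjusted p = 0.315). Its locus overlaps the short RNA gene Mir684-1, whose mean was 682 scaled FPKM in the controls and 1880.2 in the cKO libraries, and how reads were divided between them was not tested. Pkp1, the plakophilin of stratified epithelia, was not tested. It was at 0.242, 0.552 and 1.26 in the controls and spanned 0.0822 to 0.387 in the cKO libraries. The summed level of both cadherins was 48.9 to 65.4 in the controls and 28.6 to 38.4 in the cKO libraries, and that of the plaque proteins 145 to 166 and 113 to 137. Both sums were lower without overlap under all 4 scalings. The stratified squamous marker sum beside them was 16.0 to 25.1 in the controls and 22.2 to 89.0 in the cKO libraries, overlapping. Of its 10 markers 4 were tested, and none was at 0 in every library. Krt13 and Krt15 were called higher, but each reached a scaled FPKM of 1 in 0 control and 4 cKO libraries. Among the untested markers, Krt1, Krt14 and Trp63 had lower means in the cKO libraries and Krt5, Ivl and Lor higher ones. Krt1 and Ivl did not overlap between the groups and went opposite ways. Krt1 was at 0.590 to 0.748 in the controls and 0.125 to 0.476 in the cKO libraries, and Ivl at 0.0471 to 0.0940 and 0.206 to 0.689.

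Genes of neighbouring complexes changed in both directions. Over all 11315 genes tested, 14.3% were called. The shares called of polarity, adherens junction and other desmosome genes, at 15.4%, 16.7% and 20%, lay near that. The share was 33.3% for other tight junction genes and 28.6% for junction actomyosin. For regulators it was 44.4% of 9 tested genes, and for gap junctions 60% of 5. Of 15 tested tight junction proteins outside the member rule, 2 were called higher and 3 lower, with a median log2 fold change of 0.01. The angiomotin relative Amotl1 fell from 7.49 ± 0.822 (SD, n = 3) to 3.71 ± 0.685 scaled FPKM (SD, n = 5; limma adjusted p = 0.00541). Another relative, Amotl2, was called higher, at 10.4 ± 1.99 and 15.8 ± 2.48 (limma adjusted p = 0.0397). Angiomotin itself, Amot, was at 3.17 ± 0.132 and 2.07 ± 0.469 and was not called (limma adjusted p = 0.0666). The immunoglobulin protein Igsf5 rose from 13.5 ± 1.76 to 19.8 ± 1.63 (limma adjusted p = 0.0151), and the scaffold Magi3 fell from 6.20 ± 0.892 to 3.77 ± 0.603 (limma adjusted p = 0.0205). Of 13 polarity genes, 2 were called and 11 were not, with a median log2 fold change of −0.0088. Pard6b, part of the apical PAR complex, rose from 11.4 ± 0.979 to 18.5 ± 3.39 (limma adjusted p = 0.026). Its relatives Pard6a and Pard6g had lower means in the cKO libraries and were not called. Llgl1, of the basolateral Scribble group, fell from 26.2 ± 2.38 to 14.6 ± 0.946 (limma adjusted p = 0.0015). Others of that group were not called: Llgl2 was at 35.8 ± 4.49 and 41.9 ± 2.70 (limma adjusted p = 0.168). For Scrib and Dlg1 the limma adjusted p was 0.476 and 0.944.

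Adherens junction genes were called in 2 of 12 cases, with the median at −0.02. Pvrl2, now named Nectin2, rose from 75.2 ± 3.69 to 99.96 ± 8.24 (limma adjusted p = 0.0297) and Vcl, which encodes the actin linker vinculin, fell from 32.8 ± 1.60 to 24.6 ± 1.71 (limma adjusted p = 0.0185). E-cadherin, Cdh1, was at 174 ± 25.4 and 197 ± 26.1 (limma adjusted p = 0.415). Of 5 tested genes of the desmosome and cornified envelope outside the rule, that of periplakin, Ppl, was the one called. It rose from 14.1 ± 0.246 to 24.8 ± 2.90 (log2 fold change 0.77 ± 0.11, SE; limma adjusted p = 0.00372). Perp, a desmosomal membrane protein of stratified epithelia, was at 68.9 ± 14.9 and 108 ± 23.5 (limma adjusted p = 0.0641), Dsg3 at 2.57 ± 1.798 and 7.11 ± 3.28 (limma adjusted p = 0.0871), and Pkp4 at 30.8 ± 2.09 and 35.3 ± 4.24 (limma adjusted p = 0.287). The fifth, Evpl, was at 6.37 ± 1.66 and 6.39 ± 1.67 (limma adjusted p = 0.997).

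Gap junction genes were called in 3 of 5 tested cases. Gjb1, which encodes connexin 32, rose from 2.84 ± 1.47 to 14.0 ± 3.83 (log2 fold change 1.99 ± 0.27, SE; limma adjusted p = 0.00294). Gja1, which encodes connexin 43, fell from 65.3 ± 5.85 to 32.4 ± 8.40 (limma adjusted p = 0.0158). Connexin 43 is also a product of stromal and muscle cells, whose marker sums are given above. Of 9 tested regulators of junction genes, 3 were called higher and 1 lower. Grhl3, a grainyhead factor of barrier epithelia, fell from 6.19 ± 1.38 to 1.66 ± 0.498 (limma adjusted p = 0.00242). Its relative Grhl1 was called higher, at 1.30 ± 0.413 and 2.62 ± 0.598 (limma adjusted p = 0.0378). Grhl2, the most abundant of these relatives, was at 19.8 ± 2.41 and 18.9 ± 2.60 (limma adjusted p = 0.751). Ovol1, a zinc finger repressor of epithelia, rose from 9.65 ± 0.975 to 20.1 ± 4.58 (limma adjusted p = 0.00803).

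The actomyosin that pulls on these junctions was the last group. All 14 of its genes were tested, 3 were called higher and 1 lower, and the median log2 fold change was 0.13. Arhgef11, a guanine nucleotide exchange factor, fell from 15.5 ± 1.38 to 9.36 ± 0.884 (limma adjusted p = 0.00497). Shroom3, which drives contraction of the apical actin belt, rose from 9.95 ± 0.860 to 16.0 ± 2.35 (limma adjusted p = 0.0149), and the non-muscle myosin gene Myh9 from 57.5 ± 3.24 to 78.4 ± 9.62 (limma adjusted p = 0.0363).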

How the data were processed

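RNA of uterine epithelium was made into cDNA with random and poly-dT primers and sequenced, per the labels' protocols. Groups were taken from the genotype labels. The submitters' processing notes list TopHat, Cufflinks, bcl2fastq 1.8.3 and genome build mm10. Whether strand was used is not given in the sources used here. What the authors deposited are FPKM values with 95% intervals, computed by the authors for 34535 RefSeq transcripts in each library, per the file headers. The authors' coverage signal, also deposited, entered no result. FPKM was summed per symbol, 15 genes with a status other than OK (no member) were left out, and libraries were brought to 1 scale by median ratios over 9939 genes (factors 0.924 to 1.06). No counts were used, and depth was estimated from the width of the FPKM intervals of genes with 1 transcript.

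The test, on log2(scaled FPKM + 1), a scale that understates changes of low genes, was limma 3.58.1 with a trend in the variance (R 4.3.3, two-sided). It took in 11315 genes that reached a scaled FPKM of 1 in 3 or more libraries, over which p-values were adjusted by Benjamini-Hochberg. Single values were tested by exact permutation over the 56 assignments of 8 libraries to 3 and 5, two-sided (scipy 1.17.1). The fit was tested on simulated data. Alternatives were other scalings, filters, pseudocounts, variance models, marker levels or title series as a term, and leaving out libraries. Values in every library are given for called members, for the 3 most abundant of each role and for members whose groups separate fully. The other members are given by range, and 1 member and 2 genes of the other lists are not reported here. Of each other list up to 3 called genes by adjusted p are named, and the other genes of the lists named in the text lie outside this rule. The members, lists, tests and rules were chosen with earlier results of these data known. Coordinates come from the deposited mm10 tables and are 1-based. Promoters are from the RefSeq table, which held entries for 27 members.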

Additional observations from a re-analysis of the deposited data

Results flagged for a closer look

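A total of 37 groups of member levels, transcript shares and marker sums in the 5 cKO libraries were checked for a library far from the others, which chance alone gives in about 1 of 20 groups. The summed level of the stratified squamous markers was 89.0 scaled FPKM in cKO 1, against 22.2 to 30.7 in the other cKO libraries. Most of it was 1 gene, Krt6a, at 74.7 in cKO 1 and at 8.11 to 19.6 in the other cKO libraries.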

How the results depend on the processing

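The main fit called 823 genes higher and 790 lower, of them 4 and 3 members. FPKM without scaling gave 2 members higher. TPM gave 510 genes higher and 1662 lower and 2 members higher and 8 lower, with 12514 genes tested and the median of all genes at −0.20. Array weights gave 1793 genes higher and 1733 lower and 7 members lower. Entering the level of stromal and muscle markers in the fit left 360 genes higher and 317 lower, and 2 members higher and 1 lower. Leaving out 1 library gave 238 to 935 genes higher and 176 to 892 lower, and 0 to 4 members higher and 1 to 3 lower, with the lowest counts without control 2 or control 3. Without cKO 1 and cKO 2, whose titles belong to another number series, 3 members were higher and 3 lower. The cause of these moves was not tested. No called member changed sign in 23 alternative fits, and no transcript share passed an adjusted p of 0.05 in any alternative, or in the main test, where 1 had an unadjusted p below 0.05. In that test a single share at the smallest possible permutation p could not pass after adjustment over 7 members. No paired analysis was possible because the labels give no replicate numbers or pairing. Many calls were lost when 1 of the 3 controls was left out. The part of that control's own values and the part of having fewer libraries were not told apart. Members with few fragments, such as Cldn5 with 20 in its lowest library, are measured least precisely.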
